A study of Mus musculus with 12 samples.

Results

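The 8 genes described here encode platelet-derived growth factor (PDGF) ligands and receptors and proteins used as markers of pericytes: Pdgfa, Pdgfb, Pdgfra, Pdgfrb, Rgs5, Cspg4, Kcnj8 and Abcc9. They were chosen by symbol from the 24421 gene symbols of the count table. All 8 were found and all 8 were among the 15246 genes tested after a filter on low counts. RNA came from whole lungs of wild-type CD-1 mouse embryos, isolated at embryonic day 12.5, embedded in Matrigel and kept at an air-liquid interface. At Day 0, 1 day after isolation, a 20% solution of the gel precursor PEG-HCC was added to the Matrigel around the lungs that were followed to Day 2. In the Day 2 compression group a two-photon laser crosslinked this polymer into a barrier around the lung, meant to restrict its growth for 2 days. In the Day 2 control group the same solution stayed uncrosslinked, so the Day 2 groups share the polymer and differ in its crosslinking as well as in restriction. The third group is Day 0, and the labels do not say whether its lungs received the solution. Each group holds 4 libraries, and the labels do not say whether these came from separate embryos, so p-values measure the spread between these samples.

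PDGF ligands are secreted dimers that bind receptor tyrosine kinases on mesenchymal cells. In the developing lung PDGF-A comes mainly from epithelium and acts on fibroblasts that carry PDGFR-alpha, precursors of alveolar myofibroblasts among them. PDGF-B is released by endothelial cells and recruits pericytes, which carry PDGFR-beta and wrap capillaries. In whole-lung RNA a smaller number of cells of a type and less RNA per cell cannot be told apart.

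Depth and the libraries that stand apart bear on all values below. Total counts ranged from 13979871 to 33249761 per library. Control replicate 4 carried liver transcripts: 8 liver genes summed to 1580 CPM there (read counts scaled to a common library size, corrected with edgeR's TMM factors) and to between 0.418 and 17.5 CPM in the other 11 libraries. Compression replicates 2 and 3 differed least of all pairs within a group (mean chi-square of 4.09 per gene, against at least 7.51), and they were counted as 2 samples. Their descriptions in the labels differ only in a final letter, A or B, and do not say whether they share a lung or litter, in which case compression would hold fewer than 4 independent samples. The sum of 10 epithelial genes, Nkx2-1 and Sftpc among them, ranged over 1110 to 1255 CPM at Day 0, over 2141 to 2253 CPM among controls and over 2271 to 2880 CPM in compressed lungs. Of 20 further pericyte and mural cell markers, 17 passed the filter. Higd1b, which marks lung pericytes of later stages, had at most 3 counts in any library. Vtn had 0 counts in all 4 compression libraries, which allows a level of up to 0.0260 CPM over the group (counting error only), and 203 counts in control replicate 4, the library with liver transcripts.

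Over 2 days of culture Pdgfa more than doubled while Pdgfb, Pdgfra, Pdgfrb and Rgs5 fell, with compression and without it. Under compression the fall of Pdgfb passed in only 7 of 16 alternative fits, as described below. Cspg4, Kcnj8 and Abcc9 did not pass the test. No member differed between compression and control at an adjusted p of 0.05. In controls against Day 0, 5 of 8 members passed, where 40.2% of all genes tested did. One of these rose (22.6% of all genes rose) and 4 fell (17.6% of all genes fell). The median log2 fold change was -0.85 over the members and 0.02 over all genes tested. In compression against Day 0, 5 of 8 passed, again 1 up and 4 down, beside 49.1% of all genes (26.6% up and 22.5% down), with medians of -0.70 over the members and 0.02 over all genes. Both comparisons share the Day 0 libraries, so their results are not independent. Controls did not overlap Day 0 for 4 of 8 members (37.9% of all genes), 1 of them higher (20.4% of all genes) and 3 lower (17.4%). Compression did not overlap Day 0 for 3 of 8 members (43.0% of all genes), 1 of them higher (23.5%) and 2 lower (19.5%). At an unadjusted p under 0.05, 5 of 8 members differed in controls against Day 0 (48.9% of all genes) and 5 of 8 in compression against Day 0 (55.5%).

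**Figure D1:**
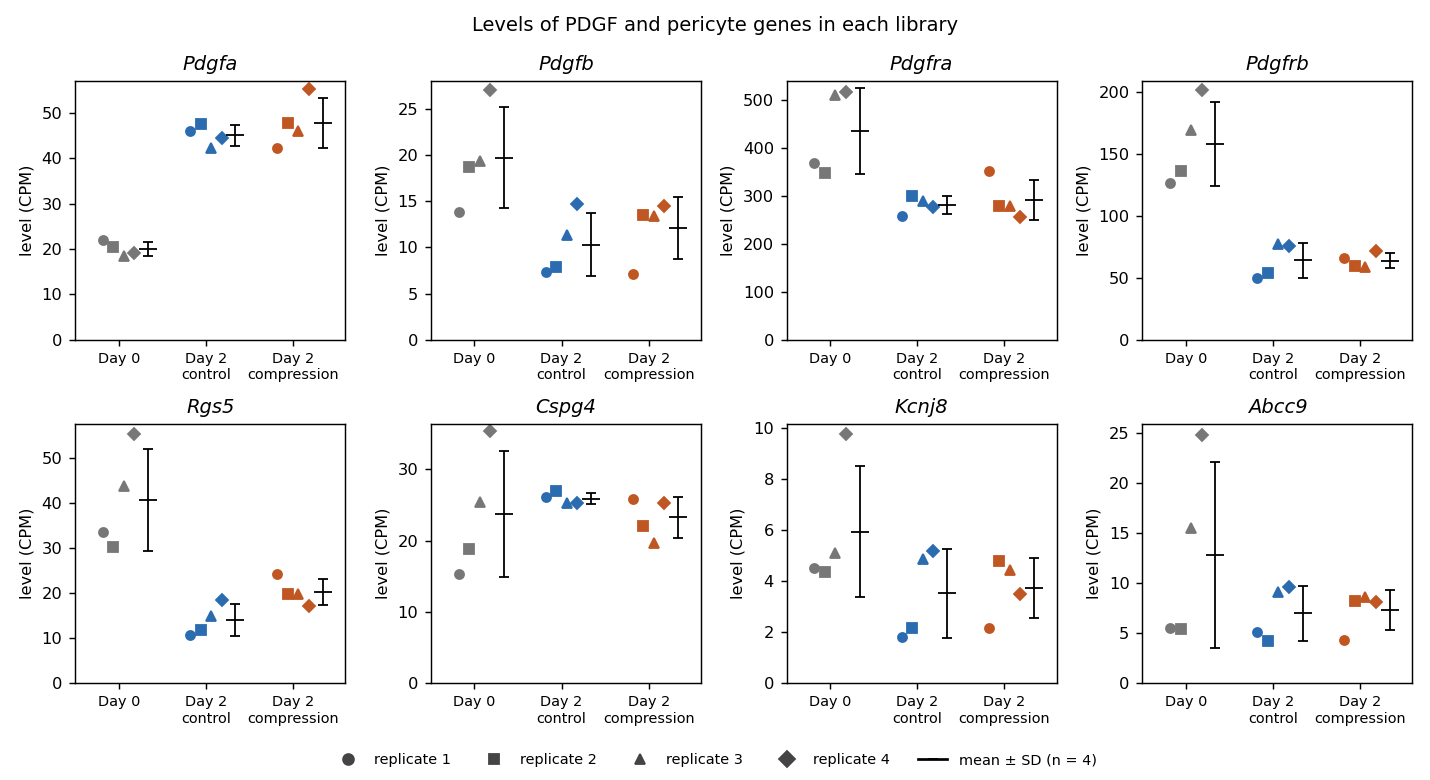
Level of each of the 8 genes in CPM (y axis, from 0, a separate scale per gene) in each library of the 3 groups. Symbols mark replicates and the bars to their right are mean ± SD (n = 4). All 8 Day 2 libraries lie above the Day 0 libraries for Pdgfa and below them for Pdgfrb and Rgs5.

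Pdgfa (chromosome 5, 138976014 to 138997370, minus strand, in mm10) encodes the A chain. Its level was 21.9, 20.5, 18.5 and 19.2 CPM in Day 0 replicates 1 to 4, 45.98, 47.7, 42.3 and 44.6 CPM in control replicates 1 to 4, and 42.3, 47.8, 46.01 and 55.3 CPM in compression replicates 1 to 4. Every Day 2 library stood above every Day 0 library, while the Day 2 groups overlapped. Controls averaged 45.1 ± 2.29 CPM against 20.0 ± 1.49 at Day 0 (mean ± SD, n = 4), a 2.26-fold rise (log2 fold change 1.17, SE 0.09, adjusted p = 5.92e-07 by edgeR's quasi-likelihood test with Benjamini-Hochberg adjustment, which gives all adjusted p-values here). Under compression the level was 47.8 ± 5.47 CPM, 2.39-fold above Day 0 (1.26, SE 0.09, adjusted p = 2.40e-07). Epithelial genes rose as well: 7 of 10 rose in each comparison with Day 0 and 1 fell. Of all genes 22.6% rose and 17.6% fell in controls, and 26.6% rose and 22.5% fell under compression. The part of the epithelial genes in the Pdgfa result was not tested. Exons of 6330403L08Rik, on the opposite strand, cover 26.1% of the exon length of Pdgfa. 6330403L08Rik is not among the symbols counted. Whether the counts used strand is not known, so the Pdgfa counts may include its reads over the overlap.

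Pdgfb (chromosome 15, 79995874 to 80014977, minus strand) encodes the B chain. It stood at 13.9, 18.8, 19.3 and 27.1 CPM in Day 0 replicates 1 to 4, at 7.34, 7.89, 11.4 and 14.7 CPM in control replicates 1 to 4, and at 7.15, 13.5, 13.4 and 14.5 CPM in compression replicates 1 to 4. Control replicate 4 and compression replicate 4 reached the lowest Day 0 library, so both Day 2 groups overlapped Day 0. Pdgfb fell by 0.96 on the log2 scale in controls (SE 0.27, adjusted p = 0.0128) and by 0.70 under compression (SE 0.27, adjusted p = 0.0421). The call under compression was lost with upper quartile factors (adjusted p = 0.0509), with no filter on low counts (0.0662) and with compression replicates 2 and 3 summed (0.0562). It was also lost without any 1 of Day 0 replicates 2, 3 and 4 or compression replicates 1, 2 and 3 (adjusted p = 0.0558 to 0.124).

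Markers of endothelial cells, a source of PDGF-B, moved with Pdgfb. The sum of 12 endothelial genes was 421, 480, 505 and 682 CPM in Day 0 replicates 1 to 4, 109, 139, 159 and 172 CPM in control replicates 1 to 4, and 136, 166, 162 and 152 CPM in compression replicates 1 to 4. Within Day 0 and within controls, but not within compression, this sum ranked the libraries in the same order as Pdgfb. The order of the sum was that of Pdgfrb and Cspg4 at Day 0, of Rgs5 and Kcnj8 in controls and of Kcnj8 under compression. The shared order was thus not particular to Pdgfb. Of the 12 genes 11 fell in each comparison with Day 0 (beside 17.6% of all genes in controls and 22.5% under compression). The median log2 fold change of the 12 was -2.38 in controls and -2.23 under compression. Eng, which encodes the TGF-beta co-receptor endoglin, did not pass (0.01 and 0.07). The same 11 genes had lower fold changes than Pdgfb in both comparisons; that difference was not tested. Pecam1, an adhesion molecule of endothelial junctions, went from 63.1 ± 11.3 CPM at Day 0 to 12.4 ± 4.14 in controls (fell by 2.37 on the log2 scale, adjusted p = 8.52e-06).

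The log2 CPM of Pdgfb minus the mean log2 CPM of these 12 markers was -1.04, -0.76, -0.82 and -0.75 in Day 0 replicates 1 to 4. It was 0.63, 0.26, 0.40 and 0.61 in control replicates 1 to 4 and 0.18, 0.51, 0.57 and 0.88 in compression replicates 1 to 4. This difference was higher in all 8 Day 2 libraries than in any Day 0 library, and the same held for each of the other 7 members, so it is not particular to Pdgfb. For Pdgfrb it was 2.10 to 2.30 at Day 0 and 2.63 to 3.37 at Day 2. The part of endothelial content in the fall of Pdgfb was not tested.

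**Figure D2:**
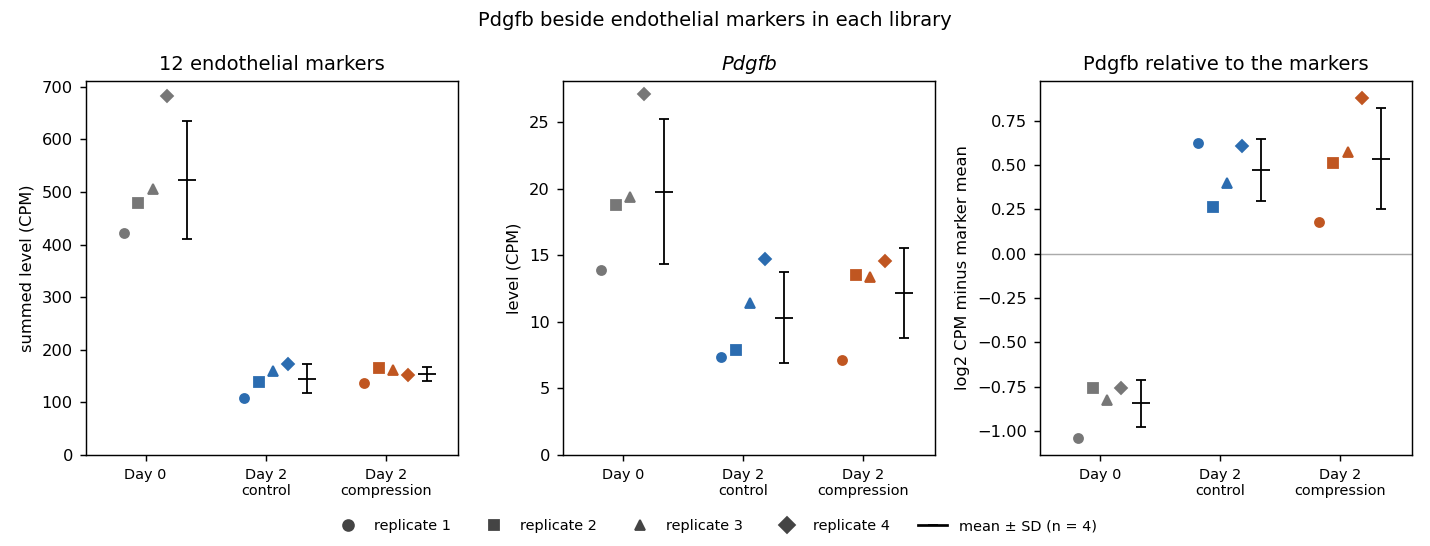
Summed level of 12 endothelial markers (left, CPM), level of Pdgfb (centre, CPM) and log2 CPM of Pdgfb minus the mean log2 CPM of the markers (right) in each library, with mean ± SD (n = 4) to the right of each group. The markers drop from at least 421 CPM to at most 172 CPM, Pdgfb drops less, and the difference lies below 0 in all Day 0 libraries and above 0 in all Day 2 libraries.

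Pdgfc, whose product is activated by proteolysis and binds mainly PDGFR-alpha, stood at 67.8 ± 11.02 CPM at Day 0, 71.0 ± 4.99 in controls and 67.8 ± 4.67 under compression, with no adjusted p below 0.632. Pdgfd, whose product binds PDGFR-beta, was a low transcript at 1.83 ± 0.149 CPM at Day 0 and 2.36 ± 0.643 in controls. It rose to 2.67 ± 0.232 CPM under compression (log2 fold change against Day 0 0.55, adjusted p = 0.0350).

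Pdgfra (chromosome 5, 75152292 to 75198215, plus strand) encodes PDGFR-alpha, the receptor of lung fibroblasts. It stood at 367, 348, 509 and 515 CPM in Day 0 replicates 1 to 4, at 258, 300.0, 289 and 276 CPM in control replicates 1 to 4, and at 352, 278, 279 and 254 CPM in compression replicates 1 to 4. All controls lay below Day 0, and compression replicate 1 alone reached into the Day 0 range. Pdgfra fell by 0.63 on the log2 scale in controls (SE 0.13, adjusted p = 0.00201) and by 0.58 under compression (SE 0.13, adjusted p = 0.00274). The sum of 12 fibroblast and mesenchyme genes did not fall with it. Day 0 libraries held 4836 to 5636 CPM, control libraries 4671 to 6191 CPM and compression libraries 5226 to 6564 CPM. Of the 12 genes 4 rose and 4 fell in controls (beside 22.6% and 17.6% of all genes). Under compression 5 rose and 3 fell (beside 26.6% and 22.5% of all genes).

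Pdgfrb (chromosome 18, 61045150 to 61085061, plus strand) encodes PDGFR-beta, the receptor of pericytes and vascular smooth muscle. It stood at 126, 136, 169 and 201 CPM in Day 0 replicates 1 to 4, at 49.5, 53.7, 76.8 and 75.2 CPM in control replicates 1 to 4, and at 65.6, 59.2, 58.6 and 71.0 CPM in compression replicates 1 to 4. No Day 2 library came within the range of Day 0. Pdgfrb fell by 1.31 on the log2 scale in controls (2.48-fold lower, SE 0.17, adjusted p = 5.55e-05) and by 1.31 under compression (2.49-fold lower, SE 0.17, adjusted p = 3.72e-05). The count of Pdgfra over that of Pdgfrb in the same library was 2.56 to 3.02 in Day 0 libraries, 3.66 to 5.59 in control libraries and 3.58 to 5.37 in compression libraries, so the ratio of the receptor messages did not overlap between Day 0 and Day 2. The count of Pdgfa over that of Pdgfra was 0.0364 to 0.0596 in Day 0 libraries, 0.146 to 0.178 in control libraries and 0.120 to 0.217 in compression libraries.

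Rgs5 (chromosome 1, 169655501 to 169695813, plus strand) encodes a GTPase-activating protein that dampens G protein signalling and is a marker of pericytes. It stood at 33.5, 30.2, 43.8 and 55.2 CPM in Day 0 replicates 1 to 4, at 10.6, 11.7, 14.9 and 18.4 CPM in control replicates 1 to 4, and at 24.1, 19.7, 19.8 and 17.1 CPM in compression replicates 1 to 4. All Day 2 libraries lay below Day 0. Rgs5 fell by 1.57 on the log2 scale in controls (2.97-fold lower, SE 0.20, adjusted p = 6.55e-05), more than any other member, and by 1.02 under compression (2.03-fold lower, SE 0.20, adjusted p = 9.73e-04). Kcnj8 and Abcc9, described next, encode the pore (Kir6.1) and the regulatory subunit (SUR2) of the ATP-sensitive potassium channel of mural cells. Their genes are neighbours on chromosome 6 and both lie on the minus strand (Kcnj8 142564837 to 142571614, Abcc9 142587862 to 142702315), 16247 bases apart with no protein-coding gene between them.

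Promoter sequence is shown for these 3 mural cell genes, because Kcnj8 and Abcc9 are neighbours that encode 1 channel and Rgs5 had the largest fall in controls (under compression Pdgfrb did). Sequences are from RefSeq (GRCm38.p6) and run 5′ to 3′ on the gene's strand, over the 250 bases before the annotated start and without bases that GENCODE annotates as an exon of the gene. Of the members, 6 had an entry in the promoter table. Capitals mark matches, on either strand, to GGGCGG (bound by the SP1 family), CCAAT (bound by NF-Y), TATAAA (the TATA box), TGGGAA (the core motif of RBPJ, the DNA-binding partner of Notch) or the CArG box (bound by serum response factor).
Rgs5 (chr1:169655251-169655500): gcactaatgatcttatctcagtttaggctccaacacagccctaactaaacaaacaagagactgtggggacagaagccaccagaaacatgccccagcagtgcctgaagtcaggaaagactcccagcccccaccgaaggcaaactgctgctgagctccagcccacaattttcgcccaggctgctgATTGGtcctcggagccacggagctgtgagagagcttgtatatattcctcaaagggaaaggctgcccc
Kcnj8 (chr6:142571615-142571864): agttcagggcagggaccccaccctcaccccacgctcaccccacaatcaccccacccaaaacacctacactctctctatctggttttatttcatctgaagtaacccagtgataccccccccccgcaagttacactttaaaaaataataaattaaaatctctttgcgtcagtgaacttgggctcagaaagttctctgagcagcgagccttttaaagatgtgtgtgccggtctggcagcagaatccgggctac
Abcc9 (chr6:142702316-142702524): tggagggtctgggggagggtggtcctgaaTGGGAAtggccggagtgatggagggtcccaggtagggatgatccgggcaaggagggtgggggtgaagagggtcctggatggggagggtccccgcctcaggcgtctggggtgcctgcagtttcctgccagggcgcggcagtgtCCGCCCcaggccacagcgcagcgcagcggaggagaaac
The Rgs5 window held 1 CCAAT match, a motif found in 33.8% of all promoter windows of that length. The 209-base Abcc9 window held 1 match to GGGCGG and 1 to TGGGAA, found in 26.5% and 18.6% of windows of its length. The Kcnj8 window, with 49.2% G and C against 68.4% in that of Abcc9, held none of the 5 motifs. The marked letters of the 3 windows share no motif.

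Kcnj8 was the lowest of the members in CPM. It stood at 4.49, 4.34, 5.09 and 9.73 CPM in Day 0 replicates 1 to 4, at 1.80, 2.16, 4.86 and 5.17 CPM in control replicates 1 to 4, and at 2.13, 4.76, 4.43 and 3.50 CPM in compression replicates 1 to 4, from 56 to 325 counts per library. All groups overlapped. Its log2 fold changes of -0.80 in controls (95% interval -1.61 to 0.02, adjusted p = 0.113) and -0.69 under compression (-1.50 to 0.12, adjusted p = 0.145) did not pass. Without Day 0 replicate 4, the highest library, they were smaller, with a change of -0.45 in controls.

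Abcc9 had the widest relative spread of the members at Day 0 (coefficient of variation 72.7%). In controls and under compression Kcnj8 did (50.4% and 31.8%, against 39.4% and 27.7% for Abcc9). It stood at 5.48, 5.41, 15.5 and 24.8 CPM in Day 0 replicates 1 to 4, at 5.05, 4.19, 9.07 and 9.58 CPM in control replicates 1 to 4, and at 4.26, 8.18, 8.55 and 8.06 CPM in compression replicates 1 to 4. At Day 0 replicates 3 and 4 were far above replicates 1 and 2, which lay within the Day 2 range. The log2 fold changes of -0.91 in controls (-1.94 to 0.11, adjusted p = 0.143) and -0.84 under compression (-1.85 to 0.18, adjusted p = 0.157) did not pass. Abcc9 passed in controls without Day 0 replicate 1 (-1.19, adjusted p = 0.0494), and its change was -0.37 without Day 0 replicate 4 (adjusted p = 0.506). Within each Day 2 group the channel genes and Pdgfb shared their lowest libraries, namely replicates 1 and 2 of the controls and replicate 1 of compression. This was not particular to them. Control replicates 1 and 2 were also the lowest controls for Pdgfrb, Rgs5 and the endothelial sum. Compression replicate 1 was also the lowest of its group for Pdgfa and the endothelial sum.

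Cspg4 (chromosome 9, 56865033 to 56899870, plus strand) encodes the proteoglycan NG2 of pericytes, which other mesenchymal and glial cells also carry. It stood at 15.2, 18.9, 25.5 and 35.3 CPM in Day 0 replicates 1 to 4, at 26.1, 26.9, 25.2 and 25.3 CPM in control replicates 1 to 4, and at 25.9, 22.1, 19.7 and 25.4 CPM in compression replicates 1 to 4. Day 0 spanned the range of both Day 2 groups. The log2 fold change was 0.12 in controls (95% interval -0.31 to 0.54, adjusted p = 0.679) and -0.04 under compression (-0.47 to 0.39, adjusted p = 0.883). The count of Cspg4 over that of Pdgfrb was 0.121 to 0.176 in Day 0 libraries, 0.328 to 0.528 in control libraries and 0.336 to 0.395 in compression libraries, with no overlap between Day 0 and Day 2. Cspg4 and Pdgfrb, both used as pericyte markers, thus gave unlike accounts of the same libraries. Day 0 replicate 4, the deepest library and the one with the highest endothelial sum, was the highest Day 0 library for 7 of the 8 members, all but Pdgfa.

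**Figure D3:**
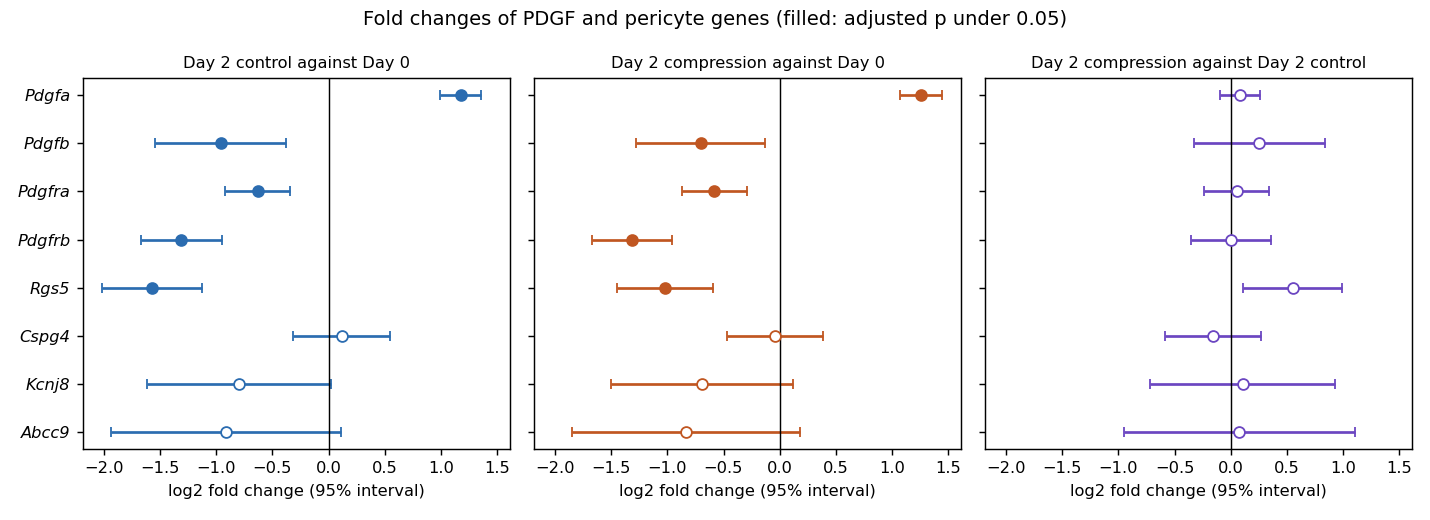
Log2 fold change with its 95% interval (x axis) of the 8 genes (y axis) in the 3 comparisons. Filled points passed an adjusted p of 0.05. Pdgfa lies right of 0 and Pdgfb, Pdgfra, Pdgfrb and Rgs5 left of 0 in both comparisons with Day 0, while every point of compression against control is open.

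Lungs in crosslinked and in uncrosslinked polymer were then set against each other at the same age. None of the 8 members passed, as no gene of the series did with edgeR (0% called, lowest adjusted p = 0.0767). At an unadjusted p under 0.05, 1 member differed, where 12.1% of all genes did, and 0 members had groups that did not overlap, beside 5.77% of all genes (3.07% higher and 2.70% lower). DESeq2, which called 0.453% of all genes, and limma-voom with quality weights, which called 12.5%, called no member either. The member with the unadjusted p under 0.05 was Rgs5, at 20.2 ± 2.88 CPM under compression against 13.9 ± 3.51 in controls. Its log2 fold change was 0.55 (SE 0.20, 95% interval 0.11 to 0.99, unadjusted p = 0.0182, adjusted p = 0.376), and 3 of the 4 compression libraries lay above all 4 controls. Over the alternatives the adjusted p was 0.0598 to 0.688. The count of Rgs5 over that of Pdgfrb was 0.241 to 0.367 under compression and 0.194 to 0.244 in controls. Endothelial sums, 136 to 166 CPM under compression and 109 to 172 in controls, overlapped.

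For the other members the data set limits to a difference. The 95% interval of the log2 fold change was -0.10 to 0.26 for Pdgfa, -0.33 to 0.84 for Pdgfb, -0.23 to 0.34 for Pdgfra and -0.36 to 0.36 for Pdgfrb. It was -0.58 to 0.27 for Cspg4, -0.72 to 0.93 for Kcnj8 and -0.95 to 1.11 for Abcc9. The interval is narrow for Pdgfa and wide for the channel genes, where 2-fold changes of Abcc9 upward lie inside it. Median log2 fold changes were 0.08 over the members and 0.0039 over all genes tested.

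Levels can be set between genes after division by exon length (CPM per kilobase of annotated exon, lengths from GENCODE M21). At Day 0 Pdgfra led with 43.4 ± 8.96, ahead of Pdgfrb with 28.8 ± 6.18, Rgs5 with 8.95 ± 2.48, Pdgfa with 6.42 ± 0.479 and Pdgfb with 4.75 ± 1.31. Kcnj8 (2.32 ± 1.01), Cspg4 (1.99 ± 0.740) and Abcc9 (1.53 ± 1.11) were the lowest, and their ranges overlapped. So did those of Pdgfra (34.7 to 51.4) and Pdgfrb (23.1 to 36.7), and that of Pdgfa (5.94 to 7.02) overlapped those of Rgs5 (6.65 to 12.2) and Pdgfb (3.33 to 6.51). The range of Pdgfb also overlapped that of Kcnj8 (1.70 to 3.82). In controls the order was Pdgfra (28.0 ± 1.83), Pdgfa (14.5 ± 0.734), Pdgfrb (11.7 ± 2.59), Rgs5 (3.06 ± 0.772), Pdgfb (2.48 ± 0.821), Cspg4 (2.17 ± 0.0678), Kcnj8 (1.37 ± 0.692) and Abcc9 (0.833 ± 0.328), and it was the same under compression. By its mean Pdgfa was the fourth at Day 0 and the second at Day 2. In controls the ranges of Pdgfa and Pdgfrb overlapped (13.6 to 15.3 and 9.04 to 14.02), as did those of Rgs5 (2.34 to 4.04) and Pdgfb (1.76 to 3.53) and those of Pdgfb and Cspg4 (2.11 to 2.26). That of Kcnj8 (0.707 to 2.03) overlapped those of Pdgfb and Abcc9 (0.500 to 1.14). Under compression the ranges of Pdgfb (1.72 to 3.49), Cspg4 (1.65 to 2.17) and Kcnj8 (0.836 to 1.87) overlapped one another. So did those of Kcnj8 and Abcc9 (0.509 to 1.02) in that group. These ranges run over libraries in which all the genes were measured. Overlap therefore does not mean that the order of 2 genes changed within a library.

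Of 24 other genes of PDGF signalling, all tested, 3 rose and 6 fell in controls against Day 0 (12.5% and 25.0%, beside 22.6% and 17.6% of all genes). Under compression 5 rose and 8 fell (20.8% and 33.3%, beside 26.6% and 22.5% of all genes). Their median log2 fold changes were -0.11 and -0.06. Plcg1, which encodes the phospholipase C recruited by activated receptors, went from 212 ± 4.47 CPM at Day 0 to 136 ± 4.11 in controls and 129 ± 4.94 under compression (fell by 0.65 and 0.72 on the log2 scale, adjusted p = 5.92e-07 and 1.63e-07). Crkl, an adaptor gene, fell by 0.27 and 0.33 (adjusted p = 9.40e-04 and 1.29e-04).

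Furin, which encodes a protease that cuts PDGF precursors and was named after its values were seen, did not pass in controls (-0.26, adjusted p = 0.0836) or under compression (-0.10, adjusted p = 0.504). Plat, which encodes the tissue plasminogen activator that can activate PDGF-C, fell from 50.3 ± 5.87 CPM to 18.03 ± 1.81 in controls and 17.1 ± 2.12 under compression (by 1.47 and 1.55 on the log2 scale, adjusted p = 6.07e-07 and 2.97e-07). Plau, which encodes urokinase, an activator of PDGF-D, rose from 23.5 ± 6.01 CPM to 45.8 ± 19.1 in controls (log2 fold change 0.95, adjusted p = 0.0405) and 85.0 ± 30.0 under compression (1.85, adjusted p = 8.56e-04). Sparc, whose matrix protein binds PDGF-B, rose from 617 ± 36.2 CPM to 994 ± 60.4 in controls and 1021 ± 108 under compression (0.69 and 0.73, adjusted p = 2.62e-05 and 1.13e-05). Pdgfrl, a gene with sequence likeness to PDGF receptors, rose from 11.8 ± 2.20 CPM to 18.1 ± 0.980 and 22.6 ± 1.83 (0.63 and 0.95, adjusted p = 6.08e-04 and 1.63e-05). For compression against control none of the 24 passed with edgeR and 4 had an unadjusted p under 0.05, where 12.1% of all genes did. Limma-voom with quality weights called Plau (1.28, adjusted p = 0.0154), Pdgfrl (0.32, 0.0212) and the adaptor gene Grb2 (0.14, 0.0357), the last of which was named after its values were seen. These 3 of 24 are the same share as the 12.5% that this tool called of all genes.

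Of the 17 tested pericyte and mural cell markers, 3 rose and 5 fell in controls against Day 0 (17.6% and 29.4%, beside 22.6% and 17.6% of all genes). Under compression 3 rose and 6 fell (17.6% and 35.3%, beside 26.6% and 22.5% of all genes). The median log2 fold change was -0.19 in both comparisons. Heyl, a target of Notch signalling, fell from 21.9 ± 10.3 CPM to 5.98 ± 0.818 in controls and 6.77 ± 0.645 under compression (by 1.89 and 1.70 on the log2 scale, adjusted p = 9.42e-05 and 1.34e-04). Ebf1, a transcription factor gene of mural and B cells, fell from 7.21 ± 4.91 CPM to 1.43 ± 0.385 and 2.03 ± 0.489 (by 2.37 and 1.85, adjusted p = 5.52e-04 and 0.00189). Gucy1a3, a subunit of the nitric oxide receptor guanylate cyclase, fell by 0.67 and 0.60 (adjusted p = 2.71e-05 and 4.69e-05), and Tbx18, a transcription factor gene, by 0.49 and 0.77 (adjusted p = 0.0426 and 0.00286).

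Other markers of the same list rose. Ndufa4l2, a mitochondrial protein gene that hypoxia induces, went from 3.52 ± 1.06 CPM to 10.96 ± 0.446 in controls and 12.7 ± 4.19 under compression (1.65 and 1.86, adjusted p = 1.19e-04 and 3.11e-05). Anpep, which encodes the peptidase CD13, rose from 12.5 ± 1.24 CPM to 25.1 ± 9.36 and 32.7 ± 5.44 (0.98 and 1.38, adjusted p = 0.00238 and 1.49e-04). Against controls no marker of the list passed under compression with edgeR, and none had an unadjusted p under 0.05. Limma-voom with quality weights called 1 of 17 there, Anpep (0.53, adjusted p = 0.0276), beside 12.5% of all genes. The sum of 10 smooth muscle genes overlapped among the groups (744 to 968 CPM at Day 0, 780 to 963 CPM for controls, 808 to 952 CPM with compression). Against Day 0, 3 of the 10 rose and 2 fell in controls (beside 22.6% and 17.6% of all genes). Under compression 3 rose and 3 fell (beside 26.6% and 22.5% of all genes). In each comparison with Day 0, 7 of the 10 fold changes were negative on the log2 scale.

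**Figure D4:**
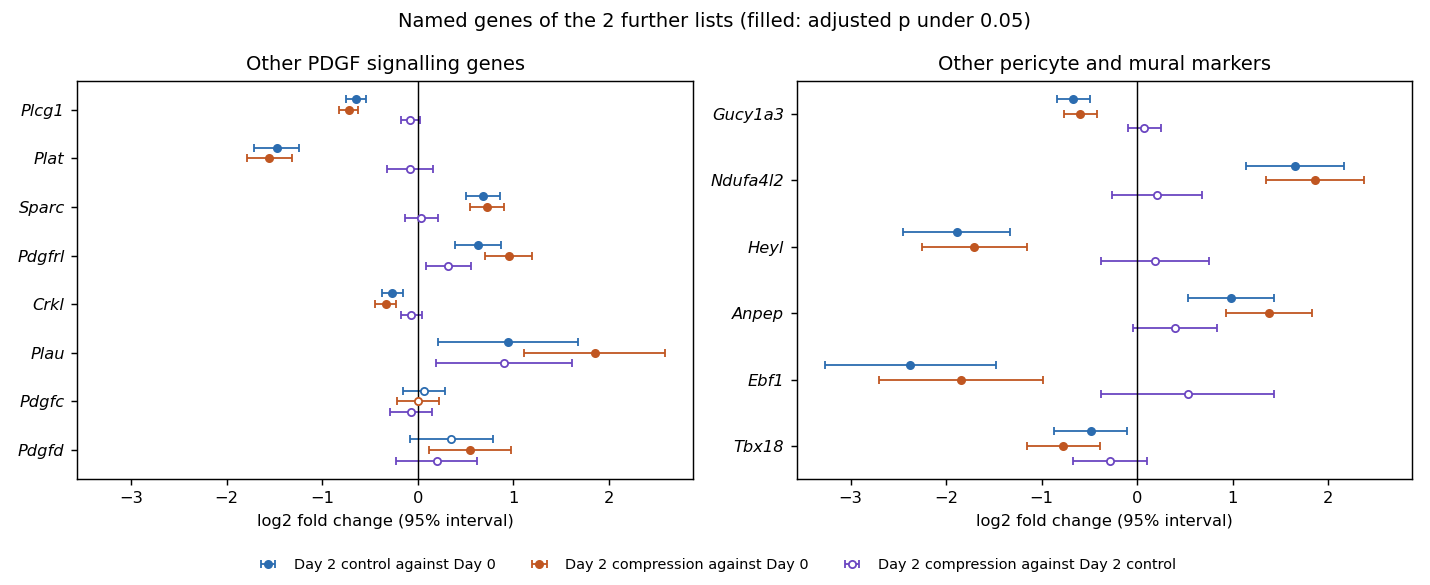
Log2 fold change with its 95% interval (x axis) of named genes of PDGF signalling (left) and of further pericyte and mural cell markers (right) in the 3 comparisons, by colour. Filled points passed an adjusted p of 0.05, and both panels hold genes on either side of 0 in the comparisons with Day 0.

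Genes with the most similar profiles were found for the 5 members that passed, by the root mean square difference of log2 CPM over the 12 libraries after each gene was centred on its mean, among 11287 genes. Most like Pdgfa were Wwc1 (0.114), Lox (0.129) and Cltb (0.131), of which Lox encodes the collagen crosslinking enzyme lysyl oxidase. Most like Pdgfb were Nrros (0.182), Frrs1l (0.185) and Col15a1 (0.191), and most like Pdgfra were Tshz2 (0.109), Pde4d (0.116) and Igf2r (0.116). Pdgfrb was nearest to Kcp (0.107), Shank3 (0.130) and Kcnk2 (0.152), and Rgs5 to Pde8a (0.156), Ripk3 (0.220) and Grap (0.222). For scale, the profile of each of these members varied about its own mean by 0.581 (Pdgfa), 0.558 (Pdgfb), 0.336 (Pdgfra), 0.656 (Pdgfrb) and 0.696 (Rgs5). None of the 5 members was among the 3 nearest genes of another of the 5. Pdgfb was among the 3 nearest genes of Kcnj8 (0.259), a member that did not pass.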

How the data were processed

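Bulk RNA-seq of 12 whole-lung explant libraries was analysed. The deposited values are raw counts, 1 column for each library and 1 row for each gene symbol. Per the submitters' processing notes, fastp, STAR and the mm10 build were used; for versions, counting, annotation and strand the sources used here give nothing.

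Genes were filtered with filterByExpr by group (minimum count 10, minimum total 15), scaled with TMM and tested in R 4.3.3 with edgeR 4.0.16 (robust quasi-likelihood fit of all 12 libraries, group as the only term). P-values were adjusted over the 15246 genes tested by the Benjamini-Hochberg method, with a threshold of 0.05. Intervals use the moderated degrees of freedom. Log2 CPM for profiles and marker means has a prior count of 2. Alternatives were RLE and upper quartile factors, no filter, DESeq2 1.42.0, limma-voom 3.58.1 with quality weights, the 8 libraries compared alone, a replicate block, compression replicates 2 and 3 summed, and omission of each library. The tests were tried on simulated data.

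The 8 members and the gene lists were chosen with earlier results of these data known. All members are named, as are the 6 genes of each of 2 further lists with the smallest p in any comparison, Pdgfc and Pdgfd, and the 3 nearest profiles of each member that passed (mean of at least 5 CPM). Gene models are from GENCODE M21 (GRCm38), where all 8 members matched. Further markers served to describe sample content: liver, epithelium, endothelium, fibroblasts and smooth muscle (in the report), and 10 macrophage, 8 platelet, 8 neural crest, 8 cartilage, 8 heart, 8 red cell and 9 related channel and RGS genes (in the closing section).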

Additional observations from a re-analysis of the deposited data

Results flagged for a closer look

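In groups of 4 libraries, a library was singled out where its gap to the nearest other, divided by the range of the group, exceeded Dixon's 95% critical value. Of 24 groups checked, 3 held such a library, and chance gives about 1 in 20. Pdgfb stood at 7.15 CPM in compression replicate 1, below the 13.4 to 14.5 CPM of the other compression libraries. Abcc9 in the same library stood at 4.26 CPM, against 8.06 to 8.55 CPM in the others. Kcnj8 stood at 9.73 CPM in Day 0 replicate 4, against 4.34 to 5.09 CPM in the other Day 0 libraries.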

How the results depend on the processing

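Each of the 8 members kept the direction of its change from Day 0 under all alternatives except Cspg4, which did not pass in any comparison. The number of members that passed was 5 to 6 in controls against Day 0, 4 to 5 in compression against Day 0 and 0 in compression against control over all alternatives. Pdgfa, Pdgfra, Pdgfrb and Rgs5 passed against Day 0 under every alternative, and so did Pdgfb in controls (adjusted p up to 0.0399). The replicate numbers are not stated to pair libraries. Of 12 same-numbered pairs, 4 had deviations that correlated above 0.1 (-0.18 to 0.17). The correlations of differently numbered pairs ranged over -0.267 to 0.185. With the replicate number as a block, Kcnj8 passed in controls against Day 0 (-0.83, adjusted p = 0.0362).

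In compression against control the number of genes of the series that passed was 0 with edgeR, 69 with DESeq2, 1913 with limma-voom, 4 in the fit of the 8 libraries alone and 0 to 53 when 1 library was left out (53 without control replicate 4 and 19 without compression replicate 1). Limma-voom called 3 of the PDGF signalling genes and 1 of the pericyte markers, against 0 and 0 with edgeR. The fold change of Pdgfrb, -0.0015, turned to 0.018 with upper quartile factors, 0.0043 with no filter, 0.0054 in the 8 libraries alone, 0.022 with the replicate block and 0.033 with compression replicates 2 and 3 summed. That of Pdgfra turned to -0.019 with limma-voom and that of Kcnj8 to -0.0054 with the summed replicates. With 1 library left out, the ranges that crossed 0 were -0.10 to 0.11 for Pdgfrb, -0.058 to 0.11 for Pdgfra, -0.12 to 0.34 for Kcnj8 and -0.105 to 0.26 for Abcc9. For Cspg4 they were -0.075 to 0.36 in controls and -0.23 to 0.21 under compression, both against Day 0. The cause was not tested.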

Other observations

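Kcnj11 and Abcc8, which encode the other pore and regulatory subunits of ATP-sensitive potassium channels, stood at 1.80 ± 0.888 and 0.959 ± 0.732 CPM at Day 0 and at 1.06 ± 0.181 and 0.349 ± 0.185 CPM in controls. Of 9 such channel and RGS genes tested, 2 rose and 2 fell in controls against Day 0 (beside 22.6% and 17.6% of all genes). Under compression 2 rose and 1 fell (beside 26.6% and 22.5% of all genes). The 9 genes summed to 119 to 126 CPM in Day 0 libraries and to 178 to 276 CPM in Day 2 libraries. Yet 6 of the 9 had negative log2 fold changes in each comparison with Day 0, with medians of -0.36 (controls) and -0.22 (compression).

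Among markers of other cells, 10 macrophage genes summed to 200 to 246 CPM (Day 0), 230 to 335 CPM (controls) and 295 to 343 CPM (compression). Platelets release PDGF, and 8 platelet genes summed to 13.1 to 15.9, 10.6 to 16.3 and 14.7 to 20.0 CPM in the same order. Red cell genes (8) summed to 921 to 1810 CPM at Day 0 and to at most 180 CPM in any Day 2 library. Cartilage genes (8) summed to 369 to 457, 271 to 335 and 280 to 338 CPM, neural crest genes (8) to 121 to 153, 145 to 185 and 144 to 183 CPM, and heart muscle genes (8) to 15.5 to 56.2, 32.1 to 63.4 and 25.8 to 52.8 CPM.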
